A study of Mus with 2 samples.

Results

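Under M2 conditions, BMDMs given GW4064 differed little from BMDMs given DMSO in the mRNAs of enzymes that build, lengthen and desaturate fatty acids. Scd1 and, to a smaller extent, Elovl6 differed most. Of all genes measured, 2.94% were higher with GW4064 by at least as much as Scd1, and 9.11% by at least as much as Elovl6. A difference like that of Elovl6 was thus frequent among all genes, and each condition had 1 array. The 10 genes described here were chosen by the function of their products, with a rule that used no measured value: Acly, Acaca and Fasn for the making of palmitate, Elovl1, Elovl5 and Elovl6 for elongation, and Scd1, Scd2, Fads1 and Fads2 for desaturation. Earlier results of these data were, however, known when the genes were chosen. They are 10 of the 20056 genes to which a probe of the array could be matched, and 10 of the 13529 genes measured above background on at least 1 of the arrays.

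BMDMs are macrophages grown from bone marrow, here from femurs and tibias of male C57BL6/J mice, which the study's methods give as 10 weeks old, for 7 d in M-CSF at 10 ng/mL. Both groups then received IL-4 at 10 ng/mL, the cytokine that drives M2 polarization, so the DMSO group is an M2 control and not a resting one. The DMSO group received the solvent alone during these 24 h, and the GW4064 group received 10 µM of GW4064, a synthetic agonist of the bile acid receptor FXR, dissolved in DMSO. Each group was measured on 1 Agilent 1-colour array, on the same slide and in the same scan, and how many mice or cultures stand behind each array is not given in the sources used here. Since each condition has 1 array, the error between replicates is unknown, no test was made and no p-value is given.

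Fatty acid synthesis starts in the cytosol, where ATP citrate lyase makes acetyl-CoA from citrate, acetyl-CoA carboxylase turns it into malonyl-CoA and fatty acid synthase joins these units into palmitate. Elongases of the ER lengthen palmitate and the fatty acids taken up from food, stearoyl-CoA desaturases make monounsaturated fatty acids such as oleate, and the fatty acid desaturases act on the chains that lead to arachidonic acid. Many of the genes are known targets of the SREBP transcription factors, with LXR acting upstream of SREBP-1c and on some lipogenic genes directly. In macrophages the pathway supplies phospholipids for membranes, lipid droplets and the precursors of eicosanoids.

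Each value below is the signal of a spot, its fluorescence intensity after Agilent's software had subtracted the background, or a log2 difference, GW4064 minus DMSO, taken after the 75th percentile of each array was set to 0. The 75th percentile was a signal of 1209 with DMSO and 1265 with GW4064, so that a signal slightly higher on the GW4064 array can give a log2 difference slightly below 0. A gene's log2 difference is the mean over its probes above background. Brightness depends on the probe as well as on the mRNA, and no gene is ranked against another by its signal.

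All 10 genes were above background on both arrays, through 14 probes. Of the 10 genes, 6 were higher and 4 lower on the GW4064 array, beside 51.6% of all genes measured that were higher. Centring the arrays on their spike-in RNA instead gave 2 higher and 8 lower. None differed 2-fold: 0 of 10 were 2-fold higher, where 2.04% of all genes measured were, and 0 of 10 were 2-fold lower, where 2.71% of all genes were. At 1.5-fold, 1 of the 10, Scd1, was higher, beside 4.39% of all genes, and 0 were lower, beside 5.56% of all genes. For 10 genes each of these shares amounts to less than 1 gene, so the counts lie close to the background. Of all genes, 276 were 2-fold higher and 367 were 2-fold lower, a split with 42.9% higher that was 30.2% with spike-in centring, with 218 higher and 503 lower, and 52.9% with the normexp background correction, with 72 higher and 64 lower. The median log2 difference of the 10 genes was 0.014, and that of all genes was 0.0068. The differences of 8 of the 10 lay within 0.25 of 0 on the log2 scale, as did those of 73.3% of all genes. Centring on the spike-in RNA, added to each sample in a known amount, lowered the median of all genes to -0.17 and that of the 10 genes to -0.16, a shift that is by construction the same for all probes above background on both arrays.

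**Figure D1:**
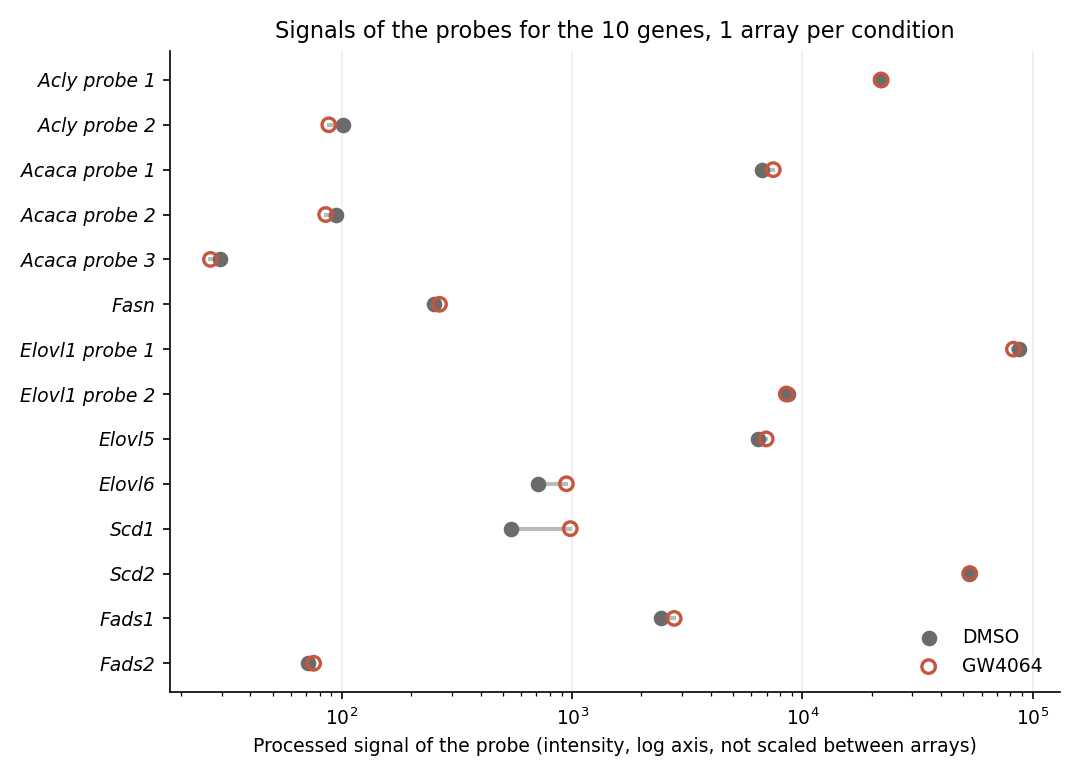
Signal of each of the 14 probes of the 10 genes for DMSO (filled gray circles) and GW4064 (open red circles), on a log10 axis in arbitrary fluorescence units, before scaling between arrays. Each point is 1 spot on 1 array, so there is no error bar; the circles of a probe lie nearly on each other except for Scd1 (543 and 982) and Elovl6 (712 and 944).

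The genes for the making of palmitate showed nearly the same signal on both arrays. Fasn, which encodes fatty acid synthase, had a signal of 251 with DMSO and 265 with GW4064, a log2 difference of 0.013. Of all genes, 6.38% had a difference of this size or smaller, and the value turned to -0.16 with spike-in centring, -0.028 with the normexp background correction and -0.0037 with centring on the median.

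Acly, which encodes ATP citrate lyase, was measured by a bright and a dim probe that were matched through different RefSeq transcripts of the gene. The bright probe read 21860 with DMSO and 21968 with GW4064, a log2 difference of -0.059. The dim probe read 101 and 87.7, a log2 difference of -0.28. Both probes were lower on the GW4064 array after scaling, and their mean was -0.17, or 1.12-fold lower. The mean was below 0 in 12 of 12 alternative ways of processing, from -0.34 to -0.059, and 19.4% of all genes were at least as far below 0. Alternatives that only change the filter on spots could not move it, since both probes passed every filter.

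Acaca, which encodes the acetyl-CoA carboxylase of the cytosol, had 3 probes that did not share a direction. The brightest read 6709 with DMSO and 7474 with GW4064, a log2 difference of 0.090. Its dimmer probes read 94.3 and 85.0, a log2 difference of -0.22, and 29.4 and 26.9, a log2 difference of -0.20. The gene's mean of -0.11, 1.08-fold lower, therefore rests on the dimmer probes, and by the brightest probe alone the gene was higher. Such disagreement was frequent on these arrays: among the 1065 genes whose probes differed 10-fold or more in signal, the probes of 43.5% pointed in opposite directions, with a median range of 0.15 on the log2 scale and a 90th percentile of 0.43. The range over probes was 0.31 for Acaca, 0.22 for Acly and 0.055 for Elovl1, and the other 7 of the 10 genes had 1 probe each.

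Among the elongases, Elovl6 stood apart from the other two. Elovl6, the elongase that turns palmitate into stearate, read 712 with DMSO and 944 with GW4064, a log2 difference of 0.34 or 1.27-fold higher. It was above 0 in 12 of 12 alternatives, from 0.17 with spike-in centring to 0.34, and 9.11% of all genes were at least as far above 0. Elovl6 has 1 probe, which passed every filter, so neither the filters nor the choice among probes could move its value. Elovl5, which lengthens polyunsaturated fatty acids, read 6421 and 6964, a log2 difference of 0.051 that turned to -0.12 with spike-in centring. Elovl1, which makes saturated and monounsaturated very long chains, was read by a pair of bright probes. The brighter of them read 87555 with DMSO and 82553 with GW4064, a log2 difference of -0.15, and the dimmer read 8692 and 8516, a log2 difference of -0.095. These probes gave nearly the same value, and the mean of -0.12, 1.09-fold lower, stayed below 0 in 12 of 12 alternatives. The filters on spots could not move this mean either.

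Scd1 differed most among the 10 genes. It encodes the stearoyl-CoA desaturase that is the main one of liver and fat in mice, and its probe read 543 with DMSO and 982 with GW4064. The log2 difference was 0.79, or 1.73-fold higher, and 398 of the 13529 genes, 2.94%, were at least as far above 0. It was above 0 in 12 of 12 alternatives, from 0.62 with spike-in centring and 0.64 with the normexp correction to 0.79, and in none of them did it reach 2-fold. As for Elovl6, the alternatives that change filters or the choice among probes could not move this value. Relative to the median of all genes, Scd1 stood at 0.78 with 75th percentile scaling and at 0.65 with the normexp correction.

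Scd2, the stearoyl-CoA desaturase known from brain and from many other tissues of the mouse, read 53072 with DMSO and 53349 with GW4064. Its log2 difference was -0.058, or 1.04-fold lower, and it lay between -0.23 and -0.040 in the alternatives. The log2 difference of Scd1 was thus 0.85 above that of Scd2, and 0.68 to 0.93 above it in the alternatives. The genes of the Scd family lie next to each other on mouse chromosome 19, in the order Scd3, Scd2, Scd4 and Scd1, with 0 other protein-coding genes between neighbours in the RefSeq annotation. Scd4 was named here for its place between Scd2 and Scd1 and after its value was seen. It read 128 with DMSO and 111 with GW4064, a log2 difference of -0.27 that was -0.091 with the normexp correction. Scd3 had 2 probes above background on both arrays. They read 24.4 and 37.7, a log2 difference of 0.56, and 140 and 151, a log2 difference of 0.041, and their mean was 0.30 but 0.0089 with the normexp correction. Within this cluster the Scd1 probe and the dim Scd3 probe thus lay above 0 after scaling, the Scd4 probe lay below 0, and the Scd2 probe and the brighter Scd3 probe were nearly level. Genes of this family have similar sequences, and how much each probe binds the mRNA of a neighbour was not tested.

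Fads1 and Fads2 encode the desaturases that, together with Elovl5, make arachidonic acid and other polyunsaturated fatty acids. Fads1 read 2440 with DMSO and 2774 with GW4064, a log2 difference of 0.12 or 1.09-fold higher, which turned to -0.055 with spike-in centring. Fads2 read 71.2 and 75.4, a log2 difference of 0.016, with -0.16 under spike-in centring, -0.024 under the normexp correction and -0.0012 under centring on the median. Neither gene had a direction that held under all scalings. Fads3, which lies next to Fads2 in the same annotation, was also named after its value was seen. It read 1956 and 2286, a log2 difference of 0.16 that turned to -0.014 with spike-in centring.

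**Figure D2:**
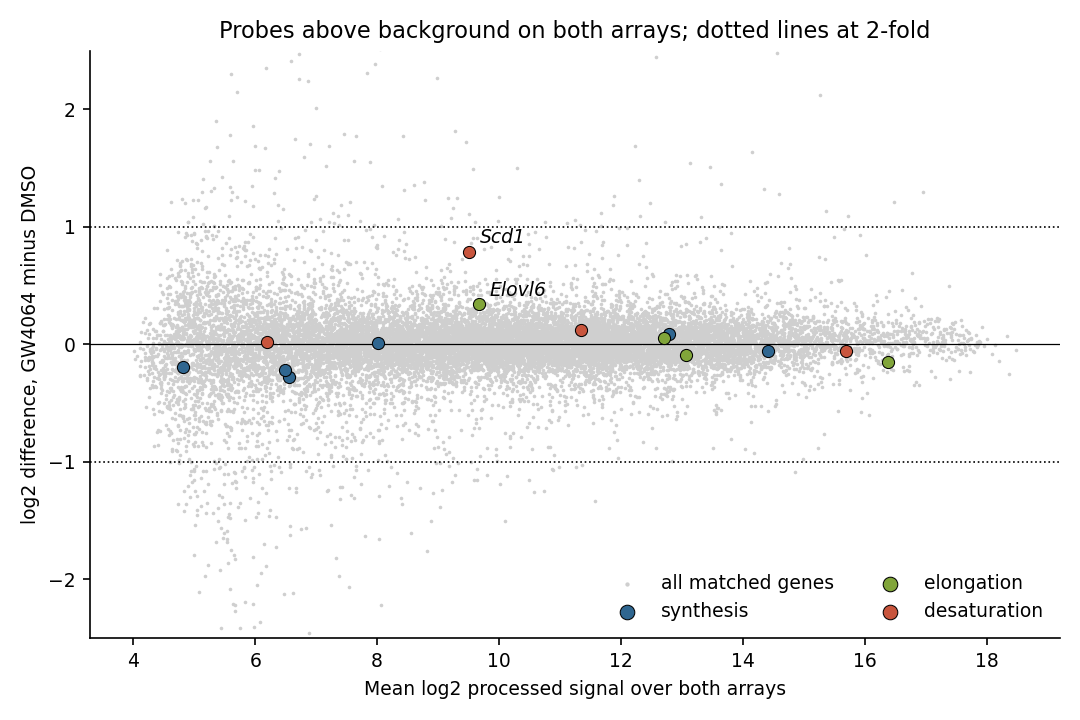
Log2 difference (GW4064 minus DMSO) on the vertical axis against the mean log2 signal of both arrays on the horizontal axis, for 16435 probes matched to a gene and above background on both arrays (gray) and for the 14 probes of the 10 genes (coloured by role); 16 gray probes lie outside the plotted range. Scd1 at 0.79 lies toward the upper edge of the gray cloud and the other coloured points lie within it, at 0.34 or nearer to 0.

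The spread within the arrays gives a measure of technical error for these differences. On these arrays 234 probes above background were printed 10 times, and the SD of the log2 difference over the copies of a probe had a median of 0.17 for signals under 100, 0.092 from 100 to 1000, 0.072 from 1000 to 10000 and 0.070 from 10000 up. All 14 probes of the 10 genes were printed at 1 spot, so this SD could only be borrowed from other probes of like signal. The Scd1 difference was 8.61 times the median SD of its signal range, the Elovl6 difference 3.72 times and that of the brighter Elovl1 probe 2.16 times, and these were the 3 of 14 probes that exceeded the 95th percentile of the SDs in their range. The other 11 probes lay within it, among them Fasn at 0.14 times and Fads2 at 0.092 times the median SD. The share of all probes past the same limits is not given here, so the count of 3 cannot be set against it. These limits ran from 0.12 to 0.34, and the quartiles of the log2 differences of all genes were -0.12 and 0.13. Copies share the RNA, the labelling and the array, and this spread therefore leaves out the differences between cultures, which cannot be measured with 1 array per condition. The software's own error estimate for the log2 difference of the 14 probes ran from 0.20 to 0.31, and the differences of Scd1, of Elovl6 and of the dim Acly probe exceeded it. For this estimate too, the share of all probes that exceeded theirs is not given here.

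Parts of the slide carried clusters of spots with very large differences. The arrays differed at least 8-fold at 577 spots, and 16.5% of all spots had at least 2 other such spots within 300 µm. The probe of Fads1, with 5 such spots near it, and that of Fads2, with 3, lay in these areas, and the other 12 probes did not. The Scd1 and Elovl6 spots had 0 such spots near them, and the median log2 difference of all spots within 500 µm was 0.033 around Scd1 and 0.10 around Elovl6. Around the 14 probes this local median ran from -0.054 to 0.10.

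**Figure D3:**
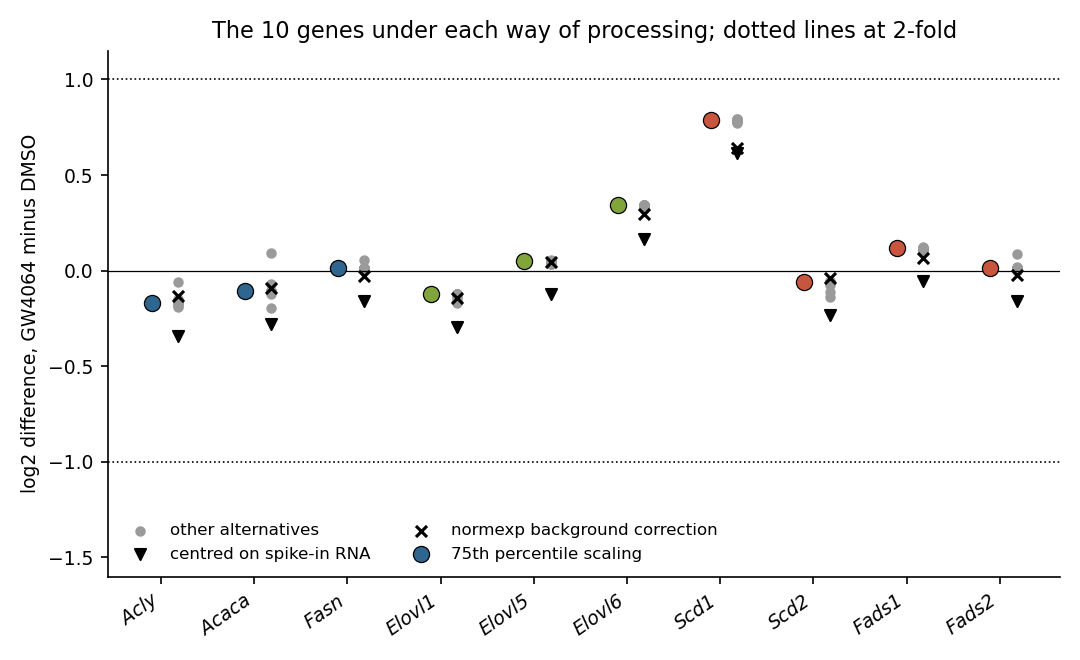
Log2 difference (GW4064 minus DMSO) of each of the 10 genes with 75th percentile scaling (large coloured circles), with spike-in centring (triangles), with the normexp correction (crosses) and in the other alternatives (gray circles), with dotted lines at 2-fold. Scd1, from 0.62 to 0.79, and Elovl6, from 0.17 to 0.34, are the genes above 0 in every alternative, Acly, Elovl1 and Scd2 are below 0 in every alternative, and Acaca, Fasn, Elovl5, Fads1 and Fads2 cross 0 in at least 1.

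The cultures carried the mRNAs of macrophages, with 8 of 9 macrophage markers above background on both arrays and Cd68 without a matched probe. Of these 8 markers, 5 were higher and 3 lower on the GW4064 array, with a median log2 difference of 0.057, or 0 higher and 8 lower with spike-in centring. Their summed signal before scaling was 313505 with DMSO and 298086 with GW4064. The largest part of it came from Csf1r, named after its value was seen, at 169338 and 161892 by its brightest probe. Csf1r was among the 3 that were lower, at -0.24. The others were Adgre1 at -0.25 and Mrc1, the lowest, at -0.34, both also named after their values were seen. Markers of stromal cells were lower on the GW4064 array for 8 of the 9 measured, where 6520 of all 13529 genes were lower. Their summed signal was 36848 with DMSO against 20860 with GW4064, and their median log2 difference was -0.72. Markers of neutrophils were lower for 6 of the 7 measured, with a median of -0.45 and a summed signal of 72262 against 70629. Most of that sum came from Csf3r, named after its value was seen, which was the only one of the 7 not lower, at 58516 with DMSO and 61730 with GW4064, a log2 difference of 0.011 that was -0.16 with spike-in centring. Of 8 adipocyte markers, 4 were above background on at least 1 array and 3 on both, with Retn above it on the GW4064 array only. Plin1, Cidec, Lep and Cfd were not above background on either array. The summed signal of all 8 was 188 with DMSO and 198 with GW4064. The part of stromal cells and neutrophils in the differences of the 10 genes was not tested, and in such bulk RNA fewer cells of a type and less RNA per cell cannot be told apart.

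The other enzymes of the pathway also held no gene that differed 2-fold, except for 1 in the deposited log2 table, which sets no bound for dim probes, 1 when marked spots were kept and 3 when dim probes were not filtered. Of 24 such genes, 19 were measured, Olah, Elovl2, Elovl3 and Elovl4 were not above background on either array, and Elovl7 had no matched probe. Of the 19, 11 were higher and 8 lower on the GW4064 array, beside 51.6% of all genes that were higher, and the median log2 difference was 0.081. With spike-in centring, which puts the median of all genes at -0.17, 5 were higher and 14 lower. Acss2, which makes acetyl-CoA from acetate, was the highest at 0.50, and it was 0.31 with the normexp correction. Its brighter probe read 314 with DMSO and 504 with GW4064. Its dimmer probe read 45.0 and 61.4 and lay in an area of large differences. Lowest was Acacb, the carboxylase at mitochondria whose malonyl-CoA restrains fatty acid oxidation, at -0.49 with a dim probe that read 30.2 and 22.5 in an area of large differences, and it was -0.17 with the normexp correction. Me1, the malic enzyme that supplies NADPH for synthesis, was at -0.40, with all 3 of its probes lower on the GW4064 array and the brightest at 575 and 480, and with the normexp correction it was at -0.34, below Acacb.

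The regulators of lipogenesis were spread about as widely as all genes. The SD of their log2 differences was 0.459, beside 0.463 for all genes. Of the 16 measured, 8 lay within 0.25 of 0, beside 73.3% of all genes. Srebf1, which encodes the SREBP-1 proteins that drive fatty acid synthesis genes, read 406 with DMSO and 413 with GW4064, a log2 difference of -0.039. Srebf2, which encodes the SREBP that favours sterol synthesis, was at -0.077, with its brighter probe at 11174 and 11420. Insig1, an SREBP target whose protein holds the SREBPs in the ER, read 685 and 989, a log2 difference of 0.46. The mRNAs of both SREBP genes were thus nearly level between the arrays without spike-in centring, while Insig1 was 1.38-fold higher. Insig1 stayed higher with spike-in centring, at 0.29, but Srebf1 was then at -0.21 and Srebf2 at -0.25. That centring puts the median of all genes at -0.17. Nr1h3, which encodes LXRα, had a log2 difference of -0.47 by each of its probes, of which the brighter read 7539 and 5697 and the dimmer 3663 and 2763. Mid1ip1, whose protein promotes the polymerization of acetyl-CoA carboxylase, read 12689 and 10522, a log2 difference of -0.34.

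Among the regulators, Mlxipl was the only gene of the 16 measured to differ 2-fold, beside 2.04% of all genes that were 2-fold higher, and it did not with the normexp correction. It encodes ChREBP, the glucose-responsive regulator of lipogenic genes, and its dim probe read 32.8 with DMSO and 82.1 with GW4064, a log2 difference of 1.26 that was 0.28 with the normexp correction. Nr0b2, which encodes SHP, a known target of FXR, read 22.5 and 45.5, a log2 difference of 0.95, with 0.35 after the normexp correction and 1.03 after quantile normalization, and its spot lay in an area of large differences. Nr1h4, the gene of FXR itself, was not above background on either array, at 3.46 and 3.24. Its only probe also lay in an area of large differences. By real-time PCR the study found Nr1h4 mRNA in BMDMs, more than in splenic myeloid cells. The arrays thus do not show that this mRNA was absent. Of the 18 regulators 16 were measured, the other gene not above background being Thrsp. Of the 16, 8 were higher and 8 lower, beside 51.6% of all genes that were higher, with a median of -0.019. With spike-in centring, which puts the median of all genes at -0.17, 4 were higher and 12 lower.

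Genes that activate fatty acids and build them into lipids had a median log2 difference of 0.015 over 18 of 19 genes, Acsl6 being not above background. In this list 10 were higher and 8 lower, beside 51.6% of all genes that were higher, and 0 differed 2-fold. With spike-in centring, which puts the median of all genes at -0.17, 1 was higher and 17 lower. Acsl3, an acyl-CoA synthetase of lipid droplets, read 706 with DMSO and 502 with GW4064, a log2 difference of -0.56. Lpcat2, which remodels phosphatidylcholine and makes platelet-activating factor, read 227 and 162, a log2 difference of -0.55. The highest were Soat1, which esterifies cholesterol, at 0.22 with signals of 1892 and 2313 in an area of large differences, and Agpat1, an acyltransferase of phosphatidic acid synthesis, at 0.14 with 3535 and 4090 and at -0.029 with spike-in centring.

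Enzymes of sterol synthesis, which share the SREBPs with many of the 10 genes, were mostly slightly lower on the GW4064 array. Of 20 genes, all measured, 4 were higher and 16 lower, beside 51.6% of all genes that were higher. With spike-in centring, which puts the median of all genes at -0.17, 0 were higher and 20 lower. Of the 20, 0 differed 2-fold and the median log2 difference was -0.16, against 0.014 for the 10 genes. Hmgcs1, which makes the HMG-CoA that feeds the mevalonate pathway, was the lowest, at 23635 with DMSO and 17145 with GW4064, a log2 difference of -0.53. Idi1, which makes an isoprenoid unit of the same pathway, read 8449 and 6508, a log2 difference of -0.44. Fdft1, squalene synthase, had the highest mean at 0.16, but its bright probe was at -0.37 and its dim one at 0.70, and Sc5d, at 0.15, was at -0.023 with spike-in centring. The difference between the medians of the lists was not tested.

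Enzymes of fatty acid oxidation, which break down what the 10 genes make, had a median log2 difference of -0.068 over 19 of 19 genes. Of these, 7 were higher and 12 lower, beside 51.6% of all genes that were higher, and 0 differed 2-fold. With spike-in centring, which puts the median of all genes at -0.17, 0 were higher and 19 lower. Cpt1a, the entry step of long chains into mitochondria that malonyl-CoA inhibits, was the lowest at -0.46, and its brighter probe read 7276 with DMSO and 5676 with GW4064. Acadl, the long-chain acyl-CoA dehydrogenase, followed at -0.23. Etfb and Eci1 were the highest, at 0.10 and 0.078, but -0.069 and -0.096 with spike-in centring.

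**Figure D4:**
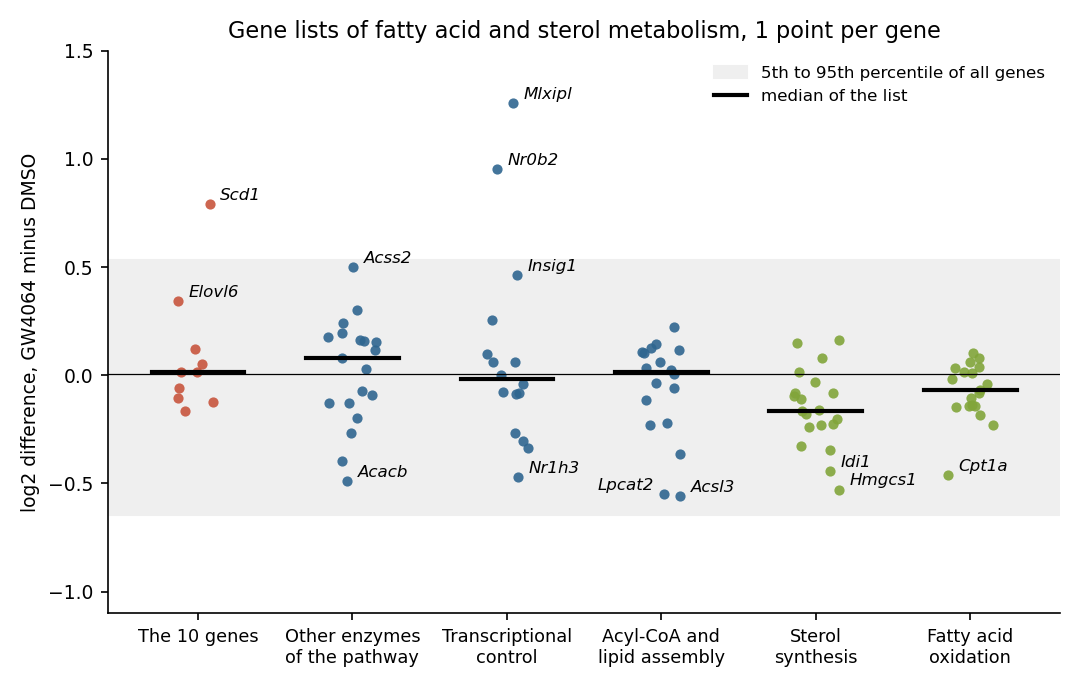
Log2 difference (GW4064 minus DMSO, 75th percentile scaling) of each measured gene of the 10 genes and of 5 lists of related genes, 1 point per gene, spread sideways at random within a list, with the median of each list as a black bar and the 5th to 95th percentile of all 13529 genes, -0.65 to 0.53, as a gray band. Scd1, Mlxipl and Nr0b2 lie above the band and no listed gene lies below it; spike-in centring lowers every point by 0.17.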

How the data were processed

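Total RNA of 1 DMSO and 1 GW4064 sample (150 ng each) was labelled with Cy3 and read on 1 Agilent array each. The authors deposited the scanner output, with the processed intensity of each spot made by Agilent Feature Extraction 10.7.1.1, which subtracts background and evens out trends inside an array but does not scale arrays to each other. Their deposited log2 table covers the same arrays, and its difference equalled that computed here for 39200 of 39200 probes within 0.001, apart from a constant of 0.0022. The baseline of that table is unknown, and its column medians are 0.035 (DMSO) and -0.051 (GW4064).

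Here the log2 of the processed intensity minus the 75th percentile over non-control spots was taken. Spots marked as non-uniform or as outliers (399 and 207) were left out, 0 were saturated, and spots of a probe were averaged. Of the probes, 57.4% and 58.5% were well above background, and the lowest such signals, 15.7 and 15.1, bounded a probe that was dim on 1 array. A gene's value is the mean over its probes above background on at least 1 array. Symbols came from RefSeq transcripts of the GRCm38.p6 annotation, which named 26575 of 39429 probes. The array was designed on another build, so no coordinates are given.

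No test was possible, and differences are given by size, with 2-fold as the main threshold. The 10 genes and the 13 lists of genes and markers were chosen with earlier results of these data known, and 1 of the marker lists is not reported here. Named were the 10 genes and, from each list of enzymes or regulators but not of markers, genes past 2-fold and the 2 highest and 2 lowest genes above background on both arrays, with Srebf1, Srebf2, Insig1, Nr1h3 and Nr1h4 always. Of 12 alternatives, those named in the text were spike-in centring, centring on the median of probes above background on both arrays, quantile normalization and limma's normexp correction (offset 50) on the median intensity, since the mean was not analysed here. The others were a loess on signal (span 0.3), the deposited log2 table, other filters on dim or marked spots, leaving out areas of large differences, and the brightest or median probe. The calculation was tested on simulated data. The software was R 4.3.3 with limma 3.58.1 and Python 3.11.15 with pandas 2.3.3, numpy 2.4.6, statsmodels 0.14.6 and matplotlib 3.10.9.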

Additional observations from a re-analysis of the deposited data

How the results depend on the processing

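No paired analysis was possible because both DMSO and GW4064 had 1 array only. Of 118 values of the 10 genes under the alternatives, 109 kept their direction. Those that did not were Acaca by its brightest probe (0.090), Fasn and Fads2 with centring on the median (-0.0037 and -0.0012) and with normexp, by gene and by probe (-0.028 and -0.024), and Fasn, Elovl5, Fads1 and Fads2 with spike-in centring (-0.16, -0.12, -0.055 and -0.16). Fads1 and Fads2 had no value once areas of large differences were left out. Many of the 109 could not have changed. Filters and the choice among probes leave a gene with 1 probe that passes them as it was.

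The median of the 10 genes was -0.16 with spike-in centring, and 1 of them was past a threshold of 1.5-fold. Among the 23 other measured genes named by the rule stated above, 263 of 273 values kept their direction and their side of 2-fold. Many of these values were fixed in the same way. Markers and genes named only after their values were seen are not among the 23. Mlxipl passed below 2-fold with normexp (0.28) and Nr0b2 above it with quantile normalization (1.03). The direction turned with spike-in centring for Agpat1 (-0.029), Fdft1 (-0.0091), Sc5d (-0.023), Etfb (-0.069) and Eci1 (-0.096), with normexp for Fdft1 (-0.034) and Eci1 (-0.051), and by the brightest probe for Fdft1 (-0.37). Outside the 23, Fads3 (-0.014) and Csf3r (-0.16) also turned with spike-in centring. Csf3r turned in further alternatives as well, such as normexp (-0.083).

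The number of all genes 2-fold higher and lower moved most with the treatment of dim probes. Some settings also changed the number of genes measured. Of 13529 genes, 72 and 64 were past 2-fold with normexp, and 495 and 495 in the deposited log2 table. The counts were 698 and 767 of 20056 without a filter, and 107 and 164 of 12575 with probes above background on both arrays. Without areas of large differences they were 168 and 202 of 11503. With the main processing they were 594 and 752 at 1.5-fold, and 65 and 79 at 4-fold. Apart from spike-in centring, a constant shift by construction, the cause of these changes was not tested. Signal over background limits the dim probes, and 1 array per condition limits all values.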
